A study of Mus musculus with 4 samples.

Results

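The granzymes and perforin are the 10 genes Gzma, Gzmb, Gzmc, Gzmd, Gzme, Gzmf, Gzmg, Gzmk, Gzmm and Prf1, found by gene symbol among the 19308 genes listed for all 4 libraries of a mouse RNA-seq study of the colonic mucosa. They were chosen by their levels in the Itch KO and WT libraries themselves, where Gzma and Gzmb on one side and the Gzmc to Gzmg group on the other were seen to differ between the genotypes, so their Itch KO and WT values are given here as a description, with no test. The study compared the mucosa of mice lacking Itch (Itch KO, 2 libraries) with that of C57BL/6 mice (WT, 2 libraries), from total RNA. Every library carries the label "Inflammation", while the protocol calls only the Itch KO mucosa inflamed. The Itch allele, the background strain of the knockout, its sex and its age are not given in the labels, and nothing states whether replicates were separate animals. Spread between replicates is therefore spread between these libraries, and part or all of it may be technical.

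Granzymes are serine proteases that cytotoxic T cells and natural killer cells store in acid granules together with perforin. When such a cell meets its target, perforin makes pores in the target's membrane and the granzymes enter and cleave proteins inside it. Granzyme A cleaves after basic residues and granzyme B after aspartate, and the mouse genome holds a further row of granzyme genes, Gzmc to Gzmg, next to Gzmb, which humans lack. In the gut, intraepithelial lymphocytes are a known source of granzymes A and B. ITCH is a ubiquitin ligase whose loss in mice is known to cause T cell activation and inflammation of several organs.

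Sequence relatedness matters for reading the counts of the Gzmc to Gzmg group. The genes lie on the minus strand of chromosome 14 (GRCm38, GENCODE M21). Gzme spans chr14:56117626-56120625, Gzmd chr14:56129556-56132608, Gzmg chr14:56156582-56159579, Gzmf chr14:56205263-56211417, Gzmc chr14:56231441-56234656 and Gzmb chr14:56258838-56262260. The opening 90 bases of each coding sequence are shown because they let the near-identity be read directly, and capitals mark the bases that differ from Gzmd after alignment by position.
Gzmd: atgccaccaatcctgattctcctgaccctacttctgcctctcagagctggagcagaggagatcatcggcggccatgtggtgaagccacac
Gzme: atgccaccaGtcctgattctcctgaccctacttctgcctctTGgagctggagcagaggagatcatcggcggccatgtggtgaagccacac
Gzmg: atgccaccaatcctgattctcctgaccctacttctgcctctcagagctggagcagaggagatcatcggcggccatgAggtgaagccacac
Gzmf: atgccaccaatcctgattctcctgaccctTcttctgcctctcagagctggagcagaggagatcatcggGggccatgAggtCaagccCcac
Gzmc: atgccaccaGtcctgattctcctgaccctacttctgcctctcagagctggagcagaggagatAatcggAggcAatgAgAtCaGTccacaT
Gzmb: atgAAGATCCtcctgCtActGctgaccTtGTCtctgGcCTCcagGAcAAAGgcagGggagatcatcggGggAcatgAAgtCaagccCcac
In this stretch Gzmg differed from Gzmd at 1 base, Gzme at 3, Gzmf at 5, Gzmc at 10 and Gzmb at 31. Over whole coding sequences, identity among Gzmc to Gzmg was 71.6% to 93.3%, and identity of Gzmb to those genes was 65.4% to 76.3%. Of all 50-base windows of the annotated transcripts, 21.9% in Gzmd, 20.6% in Gzme, 19.8% in Gzmg, 7.4% in Gzmf and 4.1% in Gzmc also occurred in another granzyme gene. Gzma, Gzmb, Gzmk, Gzmm and Prf1 shared no window of that length. At 100 bases only 2 windows were shared, between Gzmd and Gzmg. No source used here gives the read length, so the split of counts within Gzmc to Gzmg is uncertain, and the sum over the group is the firmer value.

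The regions before the start sites were also alike among Gzmc to Gzmg, while that of Gzmb was not like theirs. They are shown for 4 genes, 250 bases each before the RefSeq start (GRCm38.p6, minus strand, 5′ to 3′ on the gene's strand), and capitals mark matches on either strand to 6 motif words searched. The words were TGTGGT (RUNX), TGACGTCA (CRE), TGANTCA (AP-1), TTCNNNGAA (STAT), GGTGTGA (T-box) and ACAGGAAG (ETS), and no printed match overlaps another. The regions are chr13:113100982-113101231 for Gzma, chr14:56262335-56262584 for Gzmb, chr14:56132594-56132843 for Gzmd and chr14:56159580-56159829 for Gzmg.
Gzma: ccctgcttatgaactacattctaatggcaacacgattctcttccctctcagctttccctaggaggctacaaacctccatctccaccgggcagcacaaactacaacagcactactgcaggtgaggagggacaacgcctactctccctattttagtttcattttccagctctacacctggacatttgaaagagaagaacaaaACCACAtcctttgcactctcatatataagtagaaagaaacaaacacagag
Gzmb: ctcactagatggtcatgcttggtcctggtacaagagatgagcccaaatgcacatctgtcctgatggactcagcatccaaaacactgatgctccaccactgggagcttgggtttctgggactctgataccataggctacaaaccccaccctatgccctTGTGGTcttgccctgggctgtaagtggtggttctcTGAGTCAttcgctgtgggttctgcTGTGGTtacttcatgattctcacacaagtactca
Gzmd: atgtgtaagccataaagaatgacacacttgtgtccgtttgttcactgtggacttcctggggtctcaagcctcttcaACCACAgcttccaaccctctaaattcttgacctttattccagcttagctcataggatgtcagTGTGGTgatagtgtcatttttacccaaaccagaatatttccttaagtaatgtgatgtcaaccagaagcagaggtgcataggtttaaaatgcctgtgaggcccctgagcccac
Gzmg: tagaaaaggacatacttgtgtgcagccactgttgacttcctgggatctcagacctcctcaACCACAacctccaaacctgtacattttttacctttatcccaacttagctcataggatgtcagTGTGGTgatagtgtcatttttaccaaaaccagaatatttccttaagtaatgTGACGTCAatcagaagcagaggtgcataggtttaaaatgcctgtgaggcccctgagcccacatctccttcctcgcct
The search covered 300 bases, from 250 before the start to 50 after it. Over that window, identity among Gzmc to Gzmg was 73.5% to 93.4%, against 43.5% to 47.8% between Gzmb and those genes. TGTGGT occurred 2 times in Gzmb and in each of Gzmc to Gzmg, 1 time in Gzma, Gzmm and Prf1 and not in Gzmk. Of 32851 mouse promoters of the same length, 16.8% held that word and 1.81% held it 2 or more times. TGACGTCA was present in Gzmc, Gzmf and Gzmg and in 1.79% of all promoters. Gzmb alone among the 10 held TGANTCA, present in 7.81% of promoters. TTCNNNGAA was in Gzmb, after the RefSeq start, and in Gzmm (8.3% of promoters). GGTGTGA was in Gzmk (3.98%) and ACAGGAAG in none of the 10 (3.58%). These are matches of letters and do not show that a factor was bound.

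The 4 libraries held 8181193 and 9463759 counts in Itch KO and 9674531 and 12199709 counts in WT over the shared genes. Itch itself was at 11.9 and 13.4 CPM (counts scaled to a common library size, with the TMM correction) in Itch KO mucosa, against 204 and 183 CPM in WT mucosa. The WT replicate 1 library stands apart: keratin 5, a marker of squamous epithelium, was at 138 CPM there, against 0.86 and 3.1 CPM in Itch KO and 0.244 CPM in WT replicate 2. The counts were spread unusually evenly, since the 10 highest genes of a library together took 0.453% to 0.633% of its counts and no gene exceeded 9389 counts. Its origin was not tested.

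Of the 10 genes, 9 had both Itch KO libraries above both WT libraries, and 1, Gzmm, had both below. Across the 16956 genes with enough counts to be tested, 30.0% lay wholly above and 26.0% wholly below. The choice of the genes fixed most of the direction, so nothing is read from this count. All 10 passed the filter on low counts, and 5 of them (Gzmk, Gzmd, Gzme, Gzmf and Gzmg) had fewer than 10 counts in both WT libraries, so they passed it through the Itch KO group alone. Gzmc and Prf1, with 2 and 8 counts in WT replicate 2, would not have passed on the WT libraries alone either. Since the tissue was measured in bulk, a larger number of granzyme-bearing cells and more granzyme RNA per cell cannot be told apart.

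**Figure D1:**
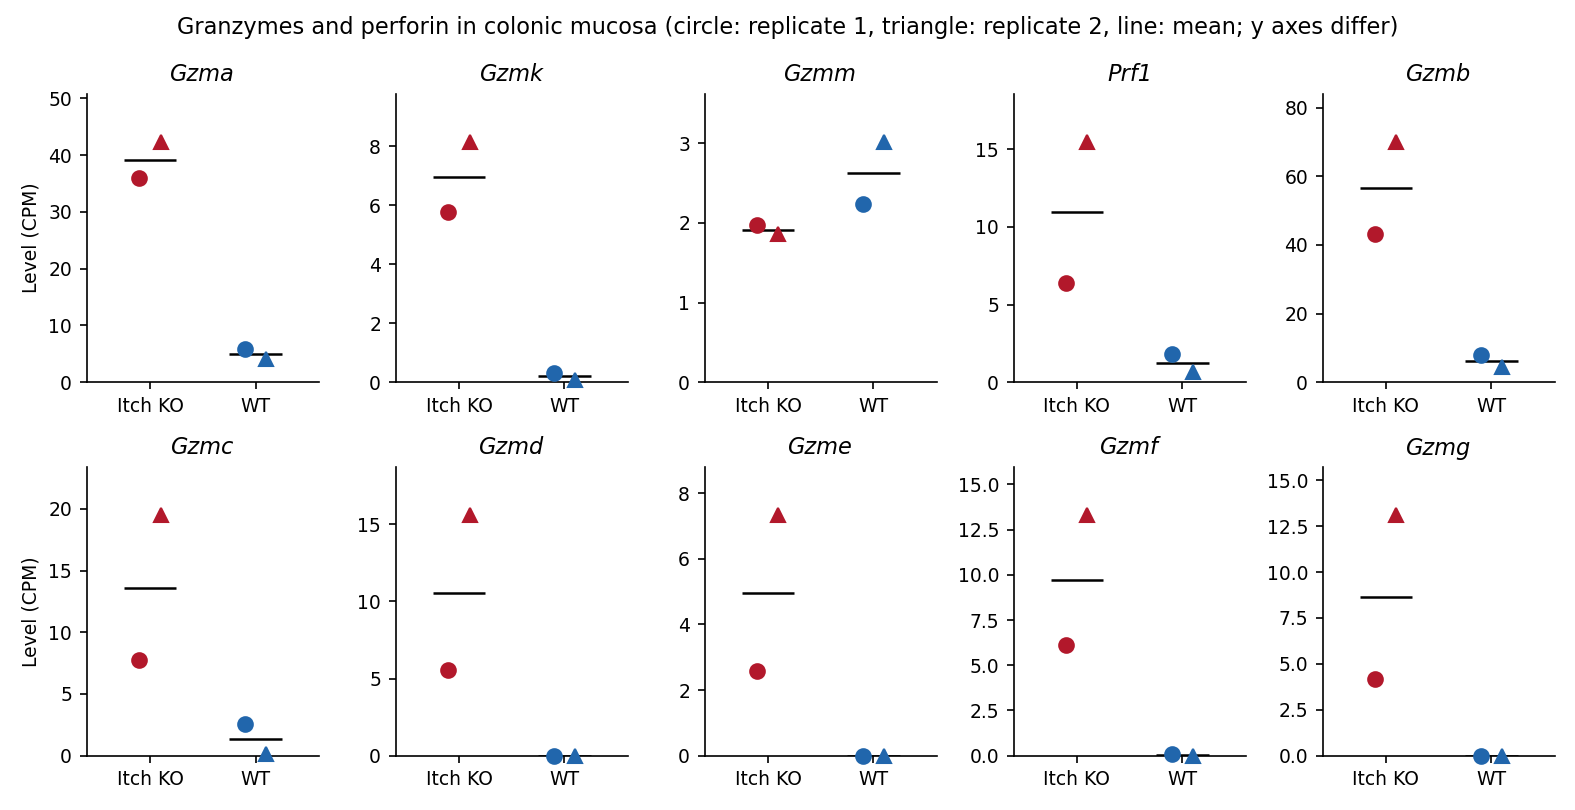
Level of each granzyme gene and of perforin in CPM, Itch KO on the left and WT on the right of each panel, with 1 point per library (circle, replicate 1; triangle, replicate 2), a line at the group mean and a y axis of its own per panel. The 9 genes other than Gzmm sit higher in both Itch KO libraries, and Gzmd, Gzme and Gzmg are at 0 in both WT libraries.

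Perforin, the pore-forming partner, had 52 and 150 counts in Itch KO mucosa and 17 and 8 counts in WT mucosa, which is 6.39 and 15.5 CPM against 1.81 and 0.652 CPM. The groups did not overlap, and Itch KO replicate 2 was 2.42 times as high as replicate 1. The log2 fold change of Prf1 (ENSMUSG00000037202, chr10:61297833-61304680, plus strand), Itch KO over WT, was 3.16 with a standard error of 0.84. It was 4.07 without WT replicate 1 and 2.38 without Itch KO replicate 2.

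Gzma (ENSMUSG00000023132, chr13:113093825-113100981, minus strand), the tryptase granzyme, was the steadiest of the abundant members. It had 292 and 411 counts in Itch KO and 55 and 51 counts in WT, that is 35.9 and 42.4 CPM against 5.87 and 4.16 CPM. The replicates of each genotype lay close together, with a mean of 39.2 ± 4.65 CPM in Itch KO and 5.01 ± 1.21 CPM in WT (SD, n = 2 each), and the log2 fold change was 2.97 (standard error 0.35).

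Gzmb (ENSMUSG00000015437), the protease that cleaves after aspartate and can start the caspase cascade, had 351 and 679 counts in Itch KO and 74 and 53 counts in WT. On the CPM scale this was 43.1 and 70.1 in Itch KO and 7.89 and 4.32 in WT, a log2 fold change of 3.22 (standard error 0.46). Itch KO replicate 2 was 1.63 times as high as replicate 1, a wider gap than the 1.18 times of Gzma. Summed, Gzma and Gzmb averaged 95.8 ± 23.7 CPM in Itch KO and 11.1 ± 3.74 CPM in WT (SD, n = 2 each), 8.62 times as high in Itch KO.

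Gzmk, a second tryptase gene of the chromosome 13 locus (ENSMUSG00000042385, chr13:113171608-113225908, minus strand), was near the limit of detection in WT. Its counts were 47 and 79 in Itch KO and 3 and 1 in WT. The ratio of pooled levels was 38.3, with a 95% counting interval of 14.6 to 143 that leaves out the spread between libraries. The fitted log2 fold change was 5.1, and it was 6.24 without WT replicate 1 and 4.39 without WT replicate 2. Its annotated span overlaps Esm1 on the opposite strand, without shared exon bases. In contrast Gzmm (ENSMUSG00000054206, chr10:79689020-79695261, plus strand), the granzyme that cleaves after methionine or leucine, had 16 and 18 counts in Itch KO and 21 and 37 counts in WT. It was at 1.97 and 1.86 CPM in Itch KO against 2.24 and 3.02 CPM in WT. The ratio of pooled levels was 0.712, with a counting interval of 0.452 to 1.11.

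The Gzmc to Gzmg group was nearly silent in WT. Gzmd (ENSMUSG00000059256) had 45 and 151 counts in Itch KO, Gzme (ENSMUSG00000022156) had 21 and 71, and Gzmg (ENSMUSG00000040284) had 34 and 127, while each had 0 counts in both WT libraries. In mice these genes are known from granulated natural killer cells of the pregnant uterus and from T cells activated in culture. A count of 0 allows up to 0.32 CPM in WT replicate 1 and 0.244 CPM in WT replicate 2, taking 3 counts as the limit. Against 3 counts over the WT group, the pooled Itch KO level was 79.3-fold higher for Gzmd, 37.2-fold for Gzme and 65.2-fold for Gzmg. These ratios take the pooled Itch KO counts as measured and are not lower bounds. Exact 95% counting intervals, which take in the counting error of both groups, began at 63.9 for Gzmd, 29.7 for Gzme and 52.4 for Gzmg. They leave out the spread between libraries, where Itch KO replicate 2 was 2.82, 2.84 and 3.14 times as high as replicate 1 for Gzmd, Gzme and Gzmg.

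Gzmf (ENSMUSG00000015441) had 50 and 129 counts in Itch KO and 1 and 0 in WT, a ratio of pooled levels of 217 with a counting interval of 38.5 to 8630. An antisense gene, Gm4022, shares 151 exon bases with it, and the strand setting of the counting is not given in the sources used here. Gzmc (ENSMUSG00000079186), known in mice to kill target cells without needing caspases, was the exception in WT. It had 63 and 189 counts in Itch KO and 24 and 2 counts in WT, so its WT signal came almost wholly from WT replicate 1, the library with squamous keratins. Its log2 fold change was 3.34 (standard error 1.34), and was 6.31 without WT replicate 1, 2.41 without WT replicate 2 and 2.53 without Itch KO replicate 2. Gzmn, a granzyme gene between Gzmg and Gzmf on the chromosome that is not among the 10 because the WT replicate 1 file does not list it, had 0 and 1 counts in Itch KO and 0 counts in WT replicate 2.

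Summed, Gzmc to Gzmg had 213 and 667 counts in Itch KO and 25 and 2 counts in WT, or 26.2 and 68.9 CPM against 2.67 and 0.163 CPM. The mean was 47.5 ± 30.2 CPM in Itch KO and 1.42 ± 1.77 CPM in WT (SD, n = 2 each), 33.6 times as high in Itch KO. On the log2 scale this ratio was 5.07, and it was 8.19 without WT replicate 1, 4.16 without WT replicate 2 and 4.21 without Itch KO replicate 2. Without Gzmc, the group held 150 and 478 counts in Itch KO against 1 and 0 counts in WT.

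**Figure D2:**
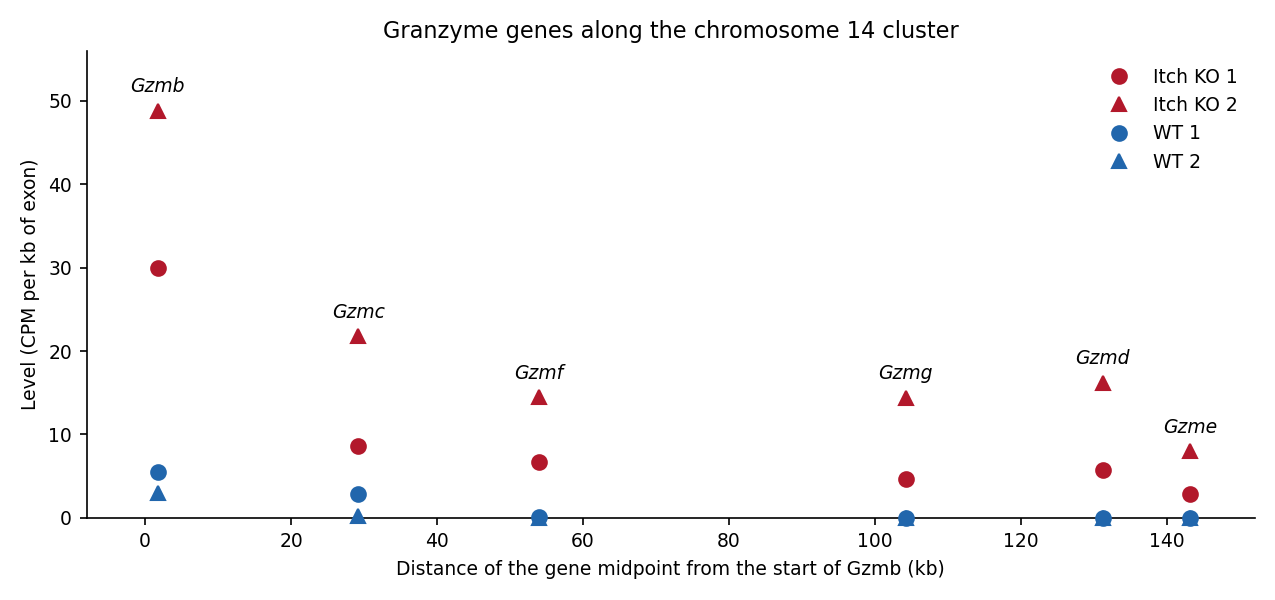
Level per kilobase of exon (CPM per kb, y axis) of the chromosome 14 granzyme genes against the distance of the gene's midpoint from the start of Gzmb (kb, x axis), 1 point per library. Gzmb is highest in every library, and the Itch KO points of Gzmc to Gzmg lie at 2.82 to 21.8 CPM per kb, with WT points at or near 0 except Gzmc in WT replicate 1.

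Levels per kilobase of exon allow for gene length. The densest gene of a library held 2350 to 2807 counts per kb over the 4 libraries. Whether the even spread of counts affects comparisons between genes was not tested. Gzmb and Gzma led in Itch KO at 39.4 ± 13.3 and 38.9 ± 4.62 CPM per kb (SD, n = 2). Gzmc followed at 15.2 ± 9.32, Gzmd at 11.0 ± 7.38, Gzmf at 10.6 ± 5.52, Gzmg at 9.51 ± 6.95, Gzme at 5.41 ± 3.67, Gzmk at 5.02 ± 1.21, Prf1 at 4.23 ± 2.49 and Gzmm at 1.3 ± 0.0513 CPM per kb. Neighbours in this order differed by less than the larger of their SDs, except Gzma from Gzmc and Prf1 from Gzmm. In WT the order was Gzma at 4.98 ± 1.2, Gzmb at 4.25 ± 1.76, Gzmm at 1.79 ± 0.372, Gzmc at 1.52 ± 1.9, Prf1 at 0.477 ± 0.318, Gzmk at 0.145 ± 0.121 and Gzmf at 0.058 ± 0.0821 CPM per kb, with the others at 0. By its mean, Gzmm thus stood last in Itch KO and next after Gzma and Gzmb in WT, well below both. In WT replicate 1 Gzmc, at 2.86 CPM per kb, lay above Gzmm at 1.52. The 2 Itch KO libraries did not order the leading pair alike, since Gzma led at 35.7 against 30.0 CPM per kb for Gzmb in replicate 1, and Gzmb led at 48.8 against 42.2 for Gzma in replicate 2. Among all genes ranked by counts per kilobase, Gzma lay at percentiles 90.0 and 94.6 in Itch KO and 43.1 and 36.7 in WT.

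The Itch KO libraries differed more in the Gzmc to Gzmg group than in Gzma. Replicate 2 exceeded replicate 1 in 9 of the 10 genes. The ratio was 1.18 for Gzma, 1.41 for Gzmk and 1.63 for Gzmb. It was 2.17 for Gzmf, 2.52 for Gzmc, 2.82 for Gzmd, 2.84 for Gzme and 3.14 for Gzmg. Prf1, at 2.42, lay within the range of the Gzmc to Gzmg group, so the wide gap was not particular to that group. Gzmm was at 0.946 times. Gzmc to Gzmg made up 24.9% of the summed Gzma, Gzmb and Gzmc to Gzmg counts in Itch KO replicate 1 (213 of 856, exact 95% binomial interval 22.0% to 27.9%) and 38.0% in Itch KO replicate 2 (667 of 1757, 35.7% to 40.3%). In WT the share was 16.2% in replicate 1 (25 of 154, 10.8% to 23.0%) and 1.89% in replicate 2 (2 of 106, 0.229% to 6.65%). The intervals cover counting error only, and those of the 2 Itch KO libraries did not overlap.

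**Figure D3:**
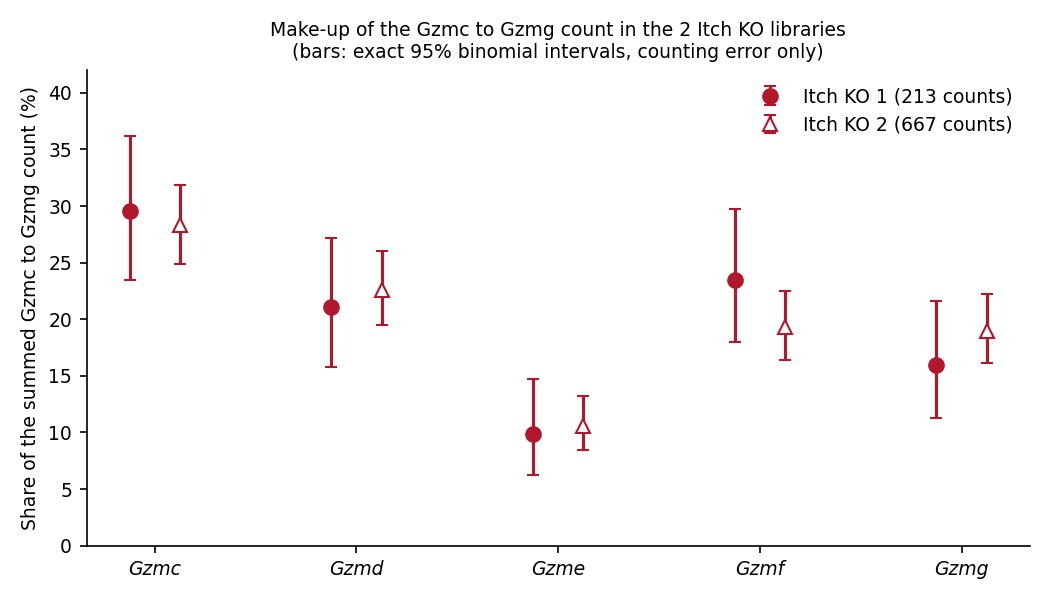
Share of each gene in the summed Gzmc to Gzmg count (%, y axis) of the Itch KO libraries, replicate 1 as filled circles and replicate 2 as open triangles, with bars for exact 95% binomial intervals that cover counting error. For each of the 5 genes the 2 intervals overlap, although the summed count was 213 in replicate 1 and 667 in replicate 2.

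The make-up of the group was compared between the Itch KO libraries. Gzmc gave 29.6% of the Gzmc to Gzmg count in replicate 1 (exact 95% binomial interval 23.5% to 36.2%) and 28.3% in replicate 2 (24.9% to 31.9%). Gzmd gave 21.1% (15.8% to 27.2%) and 22.6% (19.5% to 26.0%), and Gzmf gave 23.5% (18.0% to 29.7%) and 19.3% (16.4% to 22.5%). Gzmg gave 16.0% (11.3% to 21.6%) and 19.0% (16.1% to 22.2%), and Gzme gave 9.86% (6.21% to 14.7%) and 10.6% (8.41% to 13.2%). All 5 pairs of intervals overlapped. In WT replicate 1, by contrast, 24 of 25 counts were from Gzmc, 96.0% (79.6% to 99.9%). The 3 count files with summary lines list 0 reads as not unique, and how reads matching several places were handled before counting is not stated. Shared sequence can pass reads between these genes, so the shares of Gzmd, Gzme and Gzmg are the least certain.

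Markers of the cells that can carry granzymes were read in the same libraries. Their counts of wholly higher genes stand beside 30.0% of all 16956 tested genes wholly higher in Itch KO and 26.0% wholly lower. The 10 pan T cell genes, among them Cd3e and Lck, summed to 230 and 329 CPM in Itch KO and 53.7 and 94.4 CPM in WT, with 10 of 10 wholly higher in Itch KO. The 4 CD4 T cell genes summed to 71.0 and 111 CPM in Itch KO and 39.9 and 24.4 CPM in WT, and all 4 were wholly higher. Il2 was so only narrowly, at 3.69 and 4.96 CPM in Itch KO against 3.52 and 3.59 CPM in WT. The 6 CD8 and intraepithelial T cell genes overlapped more, at 110 and 153 CPM against 44.5 and 98.0 CPM, with 3 of 6 wholly higher. These were Cd8a, Cd8b1 and Cd244, while Itgae, Cd160 and Cd7 overlapped. Cd244 had the largest change of the list, at 28.4 and 70.7 CPM in Itch KO against 6.08 and 11.8 CPM in WT, and weighs heavily in the sums. The 9 natural killer genes did not separate the genotypes, at 24.8 and 45.5 CPM in Itch KO and 26.2 and 39.7 CPM in WT, with 7 of 9 overlapping. The 2 wholly higher were Klrc1, an inhibitory receptor gene, at 4.18 and 10.1 CPM in Itch KO against 2.67 and 2.61 CPM in WT, and Klra4, with 6 and 6 counts against 5 and 1 counts. Ncr1, a defining natural killer receptor, overlapped at 0.614 and 2.38 CPM in Itch KO and 3.63 and 2.04 CPM in WT. Klrc1, Klra4, Ncr1, Il2 and the genes of the CD8 and intraepithelial list were named after their values were seen.

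Mast cells and plasmacytoid dendritic cells can also carry Gzmb in mice. Here too the counts stand beside 30.0% of all tested genes wholly higher. The 9 mast cell and basophil genes summed to 310 and 470 CPM in Itch KO and 144 and 231 CPM in WT, with 8 of 9 wholly higher. Kit, which overlapped, held most of the WT sum, at 103 and 208 CPM against 80.5 and 122 CPM in Itch KO. The list's median log2 fold change was 2.95, the value of Tpsab1. Tpsab1, Fcer1a and Ms4a2 passed the low-count filter through Itch KO alone, which fixed their direction. The 5 plasmacytoid dendritic cell genes summed to 101 and 100 CPM against 74.9 and 133 CPM, mostly from Klk1 and Pacsin1, which overlapped. The 2 of 5 wholly higher were Siglech, at 9.95 and 16.1 CPM against 3.52 and 3.34 CPM, and Ccr9, at 7.13 and 8.47 CPM against 2.56 and 7.01 CPM. These genes were named after their values were seen. Neutrophil genes summed to 297 and 475 CPM in Itch KO and 188 and 15.6 CPM in WT (7 of 8 wholly higher), and B cell genes to 541 and 539 CPM against 35.8 and 21.7 CPM (6 of 6). Colonic epithelial genes summed to 2480 and 1790 CPM in Itch KO and 2370 and 1920 CPM in WT, with 8 of 10 overlapping, and squamous genes to 26.7 and 32.9 CPM against 685 and 14.3 CPM. No marker of these lists was at 0 in all libraries. The part of any of these cells in the granzyme values was not tested.

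**Figure D4:**
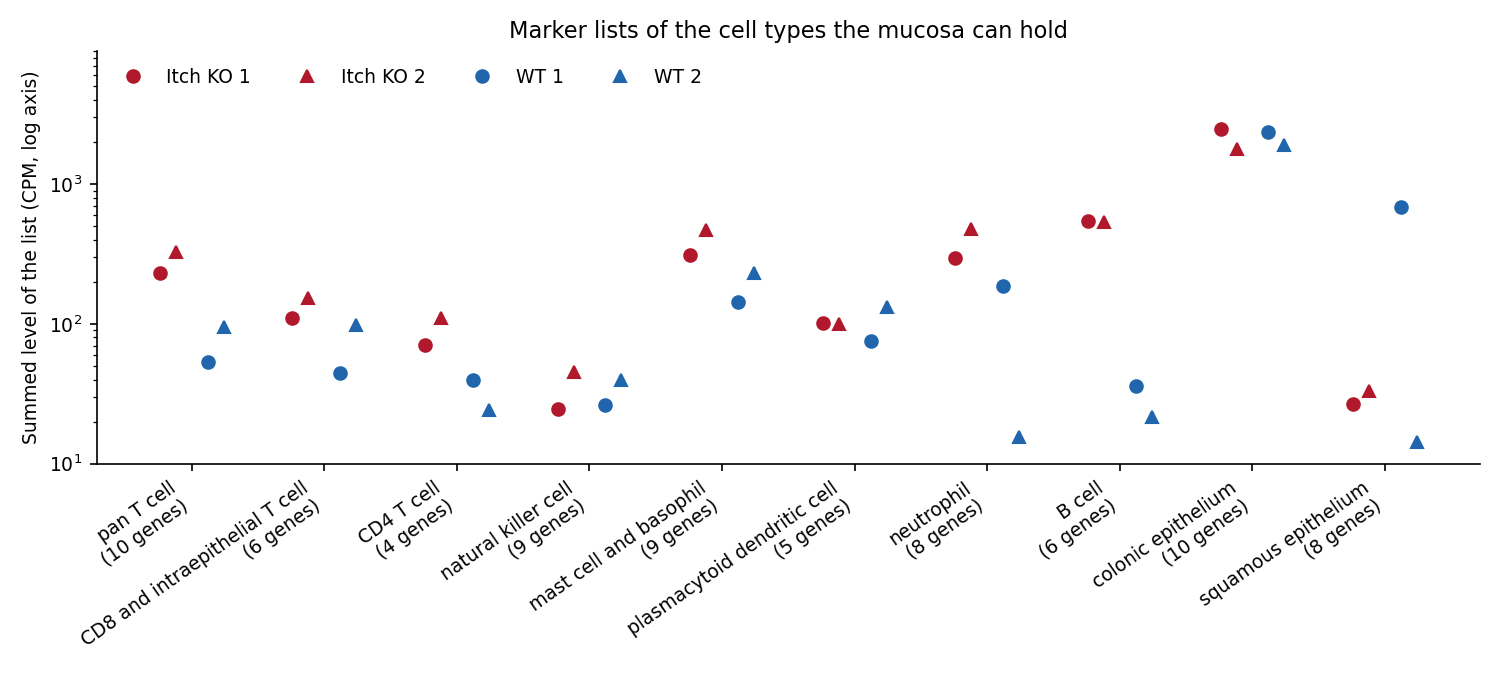
Summed CPM of each marker list (log axis) in the 2 Itch KO libraries (red) and the 2 WT libraries (blue), circles for replicate 1 and triangles for replicate 2. Pan T cell sums are 230 and 329 CPM in Itch KO and 53.7 and 94.4 CPM in WT, natural killer sums overlap, and the squamous sum of WT replicate 1 is 685 CPM.

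Set against the pan T cell sum, all 10 granzyme and perforin genes together gave 0.519 and 0.63 in Itch KO and 0.388 and 0.131 in WT. The libraries did not overlap, and WT replicate 1 lay nearer to the Itch KO values than WT replicate 2 did. The log2 ratio between the genotypes was 1.15, and it was 2.13 without WT replicate 1 and 0.57 without WT replicate 2. Gzma and Gzmb per pan T cell sum were at 0.344 and 0.342 in Itch KO and at 0.256 and 0.0898 in WT. Gzmc to Gzmg per pan T cell sum were at 0.114 and 0.21 in Itch KO and 0.0497 and 0.00173 in WT, so the gap between the Itch KO libraries remained there and not in Gzma and Gzmb. With the natural killer sum as denominator, the ratio for all 10 genes was 4.81 and 4.54 in Itch KO and 0.793 and 0.312 in WT.

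Other genes of the granule pathway, none of them among the 10, were tested in the fit over all genes. The lists were drawn up with earlier results of these data known, so their counts and medians are a description. Under edgeR's quasi-likelihood test with Benjamini-Hochberg adjustment, 0 of 16956 genes passed an adjusted p of 0.05 (0.0%), and so 0 of the 87 tested pathway genes did. At an unadjusted p under 0.05, 1727 genes were higher (10.2%) and 1614 lower (9.52%) in Itch KO, and limma voom also called 0 genes (0.0%). DESeq2 called 889 higher (5.24%) and 807 lower (4.76%). Of the 87 pathway genes, 35 were higher and 1 lower at an unadjusted p under 0.05, and DESeq2 called 28 higher and 1 lower. The 35 include Ifng, Cma2, Mcpt8, Mcpt9 and Prtn3, which passed the low-count filter through Itch KO alone. Their median log2 fold change was 0.41, beside 0.01 for all tested genes. Without Itch KO replicate 2, DESeq2 called 12 of the pathway genes, against 26 to 28 without any other library.

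**Figure D5:**
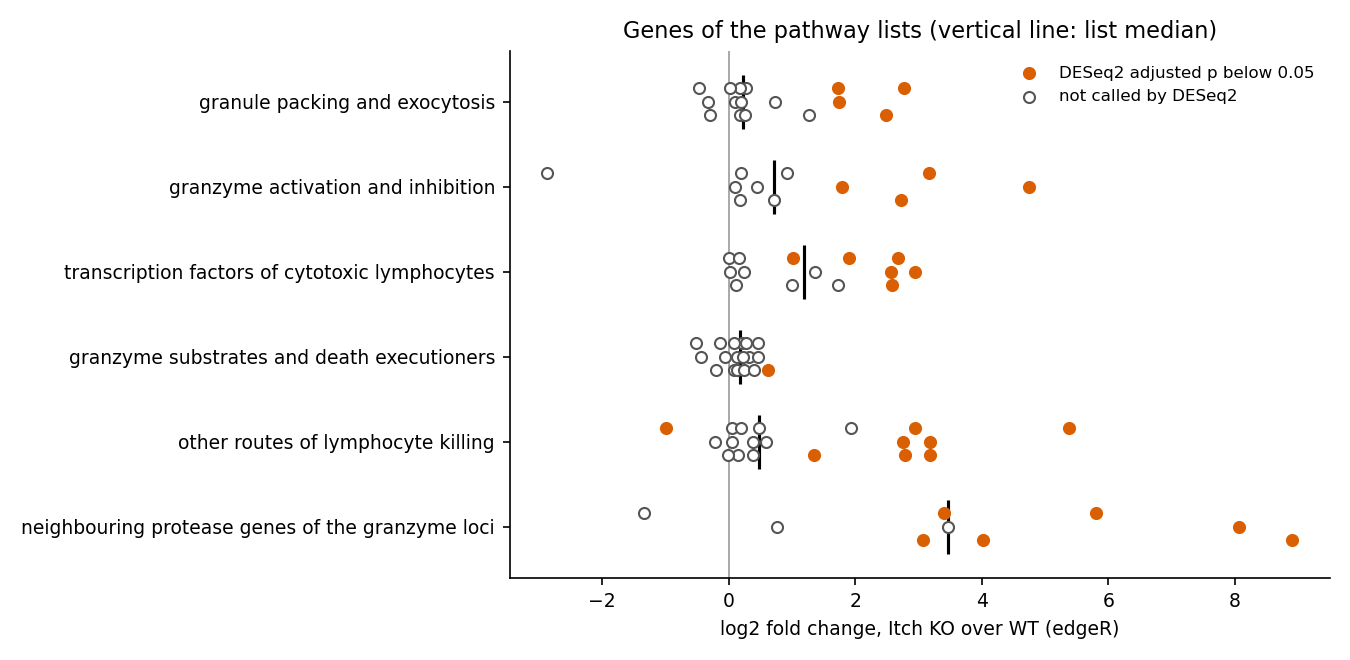
Log2 fold change, Itch KO over WT, by edgeR (x axis) of every tested gene of the 6 pathway lists, with filled points for genes DESeq2 called at an adjusted p under 0.05, open points for the others and a vertical line at each list's median. The neighbouring protease genes have the highest median, 3.47, and the granzyme substrates the lowest, 0.18. The median of 3.47 is the value of Prtn3, a gene that passed the low-count filter through Itch KO alone. The point farthest right, Mcpt8, has 0 counts in WT, so its position depends on the fit.

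Of 16 tested genes that pack and release granules, DESeq2 called 4 higher and 0 lower, and the median log2 fold change was 0.22. Serglycin (Srgn), the proteoglycan that holds granzymes in the granule, was at 79.9 and 106 CPM in Itch KO and 33.0 and 23.3 CPM in WT (log2 fold change 1.73, standard error 0.26, edgeR adjusted p = 0.123, DESeq2 adjusted p = 3.9e-05). Coro1a, an actin-binding protein of blood cells, was at 139 and 154 CPM against 46.9 and 40.7 CPM (log2 fold change 1.74, standard error 0.14, edgeR adjusted p = 0.115, DESeq2 adjusted p = 6.86e-11). Slc11a1, a metal transporter of phagocyte vesicles, was at 37.1 and 96.5 CPM in Itch KO against 15.7 and 8.15 CPM in WT. Lamp2, a membrane protein of lysosomes and the highest gene of the list, was at 207 and 229 CPM against 214 and 190 CPM.

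Among 11 tested genes of granzyme activation and inhibition, DESeq2 called 4 higher and 0 lower, with a median of 0.72. Cathepsin C (Ctsc), which removes the propeptide that keeps granzymes inactive, was at 239 and 300 CPM in Itch KO and 189 and 137 CPM in WT (log2 fold change 0.72, edgeR adjusted p = 0.219, DESeq2 adjusted p = 0.0627). Cystatin F (Cst7), an inhibitor of cathepsin C, was at 14.5 and 22.5 CPM against 1.49 and 2.61 CPM (3.16, edgeR adjusted p = 0.13, DESeq2 adjusted p = 0.000158). The serpin genes Serpina3g and Serpina3f were at 99.9 and 121 CPM and at 62.9 and 117 CPM in Itch KO, against 20.3 and 13.4 CPM and 6.4 and 0.489 CPM in WT. Their DESeq2 adjusted p-values were 1.44e-12 for Serpina3g and 1.5e-05 for Serpina3f, and edgeR's were 0.123 and 0.168.

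Among 14 tested transcription factors of cytotoxic lymphocytes, DESeq2 called 6 higher and 0 lower, with a median of 1.19. Irf4, induced by antigen receptor signals, was at 55.9 and 69.6 CPM in Itch KO and 8.21 and 11.4 CPM in WT (log2 fold change 2.67, edgeR adjusted p = 0.123, DESeq2 adjusted p = 5.21e-10). Stat4, which carries the interleukin-12 signal, was at 30.5 and 41.7 CPM against 5.12 and 6.85 CPM (DESeq2 adjusted p = 2.73e-06). Runx3, a factor of the CD8 lineage, was at 47.9 and 89.6 CPM against 11.3 and 12.0 CPM (DESeq2 adjusted p = 8.96e-07). The edgeR adjusted p was 0.123 for both. Bhlhe40, the highest of the list, was at 169 and 155 CPM in Itch KO and 178 and 141 CPM in WT.

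Granzyme substrates and death executioners had a median of 0.18 over 18 genes, and DESeq2 called 1 higher and 0 lower. That gene was lamin B1 (Lmnb1), a nuclear lamina protein cut by granzymes, at 129 and 132 CPM in Itch KO and 88.2 and 79.9 CPM in WT (log2 fold change 0.63, edgeR adjusted p = 0.131, DESeq2 adjusted p = 0.0368). Set and Hmgb2, members of the complex that granzyme A cleaves, were at 135 and 132 CPM and at 61.6 and 57.2 CPM in Itch KO, against 104 and 96.7 CPM and 44.8 and 40.7 CPM in WT. Mcl1, a survival protein that granzyme B can cleave, was at 245 and 236 CPM against 239 and 170 CPM.

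Other routes of lymphocyte killing comprised 19 tested genes, of which DESeq2 called 7 higher and 1 lower, with a median of 0.48. Tnf, a death receptor ligand and inflammatory cytokine, was at 58.5 and 89.9 CPM in Itch KO and 12.9 and 6.36 CPM in WT (log2 fold change 2.95, edgeR adjusted p = 0.123, DESeq2 adjusted p = 3.01e-07). Lymphotoxin alpha (Lta) was at 11.9 and 17.4 CPM against 1.49 and 1.71 CPM, and the interleukin-21 receptor (Il21r) at 66.4 and 91.2 CPM against 13.2 and 9.62 CPM. Ifngr1, a receptor chain for interferon gamma, was at 166 and 136 CPM against 163 and 127 CPM. The gene called lower was Il15, chosen after its values were seen, a cytokine that maintains intraepithelial and natural killer lymphocytes, at 23.7 and 25.3 CPM in Itch KO and 49.1 and 47.3 CPM in WT (log2 fold change -0.98, edgeR adjusted p = 0.131, DESeq2 adjusted p = 0.0163).

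The protease genes that neighbour the granzyme loci had the highest median of the 6 lists, 3.47 over 9 tested genes. DESeq2 called 6 higher and 0 lower. Cma2, Mcpt8, Mcpt9 and Prtn3, at 0.978 CPM or lower in both WT libraries, passed the low-count filter through Itch KO alone. That filter fixed their direction, and the median is the value of Prtn3, so nothing is read from this median and count. The chymase gene Cma2 was at 63.0 and 43.0 CPM in Itch KO and 0.213 and 0.163 CPM in WT. Mcpt2 and Mcpt1, proteases of mucosal mast cells in mice, were at 78.6 and 63.6 CPM and at 107 and 86.0 CPM in Itch KO, against 3.31 and 5.38 CPM and 6.51 and 11.6 CPM in WT. Their DESeq2 adjusted p-values were 2.03e-19 and 4.02e-15, and edgeR's were 0.115 and 0.123. Among the other members of the list, Mcpt4 was at 34.6 and 44.1 CPM in Itch KO against 6.29 and 3.02 CPM in WT, chosen after its values were seen, so members differed in which Itch KO library was the higher. Of the mast cell and basophil markers, 8 of 9 were wholly higher in Itch KO, beside 30.0% of all tested genes. Among them was Cpa3, a mast cell carboxypeptidase gene, at 52.6 and 49.9 CPM against 4.05 and 3.02 CPM. The part of mast cells and basophils in these values was not tested.

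Genes whose pattern over the 4 libraries lay nearest to Gzma and Gzmb were sought among 13316 genes, by the root mean square difference of log2 CPM centred on each gene's mean. Nearest to Gzma were C6 (0.092 log2 units), a complement component, Lcn2 (0.1), an iron-scavenging protein of inflamed mucosa, Serpina3g (0.112), Il21r (0.114) and Retnlg (0.12). Lcn2 was at 73.8 and 97.3 CPM in Itch KO and 11.5 and 9.62 CPM in WT. Nearest to Gzmb were Cd5 (0.062), a surface receptor of T cells, Tnf (0.126), Mcpt4 (0.145), a mast cell chymase, Pyhin1 (0.151) and Gapt (0.158). Cd5 was at 16.6 and 27.4 CPM in Itch KO and 2.88 and 1.39 CPM in WT. Gzma lay 0.244 from Gzmb, 0.447 from Prf1 and 1.701 from Gzmm, each farther than the 5 genes above. With 4 libraries in 2 groups, such nearness is a description of these libraries.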

How the data were processed

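RNA-seq of mouse colonic mucosa was available for 2 Itch KO and 2 WT libraries. Each library has a table of unnormalized read counts per gene that the authors deposited. Per the submitters' processing notes, HTSeq 0.6.1, TopHat2, SAMtools 0.1.19 and CASAVA 1.8.2 were used, and GRCm38 (mm10) is the build named. The strand setting is not given in the sources used here. The WT replicate 1 file lists 19308 genes and the others 39179, so analysis was limited to the shared 19308. HTSeq summary lines (no feature 18.24%, 18.29% and 23.02%, ambiguous 2.67% to 3.03% in the 3 files that have them) entered neither library sizes nor tests.

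Libraries were grouped by genotype and title. Counts were tested with edgeR 4.0.16 in R 4.3.3 (TMM factors, filterByExpr with a minimum count of 10, robust quasi-likelihood fit, group as the only term, Benjamini-Hochberg adjustment over 16956 genes, two-sided), with 2 residual degrees of freedom and a biological coefficient of variation of 34.8%. DESeq2 1.42.0 and limma voom (limma 3.58.1) were alternatives, with other scalings, other filters, a replicate term and each library left out. The fits were tested on simulated data. Each standard error is the absolute log2 fold change divided by the square root of edgeR's F statistic. For the 10 members it is given as a description and not as a test. CPM per kilobase used the union of GENCODE M21 exons. Of the 19308 identifiers, 19084 had a GENCODE entry, and 166 of 169 list symbols were found. Precision at low counts is given by exact 95% intervals and a limit of 3 counts, which cover counting error only.

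The granzymes, perforin and all gene lists were chosen with earlier results of these data known. Named from each pathway list were the genes called by edgeR or, with none called, the 3 with the smallest edgeR p and the 1 with the highest mean CPM. For the genes nearest to Gzma and Gzmb, a mean of at least 5 CPM was required and antigen receptor segments and predicted genes were left out. Coding sequences came from GENCODE M21 transcripts and promoters from RefSeq (GRCm38.p6), and all 10 genes matched both.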

Additional observations from a re-analysis of the deposited data

How the results depend on the processing

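With 2 libraries a group and 2 residual degrees of freedom, edgeR called 0 genes under every scaling, filter and left-out library tried and limma voom called 0 with all libraries, while DESeq2 called 1696 of 16956 genes (889 higher and 807 lower in Itch KO) and 29 of the 87 pathway genes. Leaving out 1 library at a time under DESeq2, an alternative added after the data were seen, gave 438 genes in all and 12 pathway genes when Itch KO replicate 2 was dropped and 1229 and 26 when its partner was. Dropping a WT library gave 1170 and 28 for replicate 1 and 893 and 26 for replicate 2, and the lone library of a group was then assumed to vary like the others. The log2 ratio of the summed Gzmc to Gzmg counts, 5.07, ranged over 4.16 to 8.19 when 1 library was left out. The log2 ratio of all 10 genes per pan T cell marker count, 1.15, ranged over 0.57 to 2.13, and was 3.08 per natural killer marker count and 2.04 per CD8 and intraepithelial T cell marker count. The cause of these shifts was not tested. No label says that replicate numbers pair the libraries. Deviations of same-numbered libraries correlated at 0.0481 over 16956 genes. With 1 difference per genotype, this value does not settle whether they shared a litter or day. With the replicate block, edgeR called 0 genes and the Gzmc to Gzmg log2 ratio was 6.01. For the 6 genes with more than 1 count in the WT group (Gzma, Gzmb, Gzmc, Gzmk, Gzmm and Prf1), none of 64 alternative values changed sign and 6 moved by more than the spread between replicates. At this depth, levels of a few counts, as for the Gzmc to Gzmg group and Gzmk in WT, rest on single reads.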
